A study of Mus musculus with 24 samples.

Results

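The proteasome genes described here are the 50 protein-coding genes, of 39056 genes in the count table, whose GENCODE symbol begins with Psma, Psmb, Psmc, Psmd, Psme, Psmf or Psmg followed by a digit. The choice used the symbol alone and no measured value. By textbook roles they comprise 8 alpha subunits and 11 beta subunits of the 20S core, 6 ATPase and 11 non-ATPase subunits of the 19S regulatory particle, 3 chaperones of 19S assembly, 5 genes of the PA28 and PA200 activators, the regulator PI31 (Psmf1), 4 chaperones of 20S assembly, and Psmc3ip. Psmc3ip carries a proteasome name through its binding partner but encodes a recombination cofactor and is no proteasome subunit. Of the 50 genes, 48 passed the filter on low counts and were tested. The other two, the testis alpha subunit Psma8 and the thymic epithelial catalytic subunit Psmb11, lay between 0 and 0.577 and between 0 and 0.49 CPM (read counts relative to the scaled total of their library) over the libraries.

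RNA was sequenced from CD4 T cells of female mice of the lupus-prone hybrid NZBWF1/j, so every group shares that background. Treated mice received OX40L and JAG1, each at 2 mg/kg, by intraperitoneal injection once a week for 3 weeks from the age of 23 weeks, control mice received PBS on that schedule, and cells were taken at 26 weeks. The sorted subsets were conventional cells (Tconv, CD4+CXCR5-GITR-), regulatory cells (Treg, CD4+CXCR5-GITR+), follicular helper cells (TFH, CD4+CXCR5+PD1Hi GITR-/low) and follicular regulatory cells (TFR, CD4+CXCR5+PD1Hi GITRHi), with 3 treated and 3 control libraries of each. The regulatory gates rest on GITR, a surface receptor that activated helper cells can also carry, and not on FOXP3. The labels do not say whether a library came from 1 animal or a pool, so p-values here measure the spread between libraries.

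The 12 treated and 12 control libraries held 2.54 M to 53.8 M counts. The control TFH libraries (5.74, 2.54 and 15.2 M) and the control TFR libraries (9.62, 8.52 and 4.85 M) were shallower than all others (at least 24.7 M). The median count of a proteasome gene was 164.5 to 1036 in control TFH libraries and 378 to 726.5 in control TFR libraries, against at least 1660 in every other library. Foxp3, which defines regulatory cells, had 561 ± 54.1 CPM in treated and 354 ± 39.6 in control TFR libraries, and 50.8 ± 8.14 in treated and 47.3 ± 18.9 in control TFH libraries. It had 549 ± 41.2 CPM in treated and 473 ± 30.6 in control Treg libraries, and 11.9 ± 1.08 in treated and 5.81 ± 1.32 in control Tconv libraries (SD, n = 3 each). The sum of 6 follicular genes (Cxcr5, Pdcd1, Bcl6, Icos, Sh2d1a and Il21) ran from 918 to 1051 CPM in treated and 1460 to 1591 in control TFR libraries. It ran from 953 to 1169 CPM in treated and 1202 to 1395 in control TFH libraries. In Treg it was 797 to 810 CPM in treated and 1122 to 1143 in control libraries, and in Tconv 327 to 356 and 255 to 345. Transcripts of 8 podocyte genes of the kidney summed to 1351 CPM in treated TFH library 3, 526.2 in treated TFR library 1, 147.5 in treated Treg library 3, and 1144 and 1136 in control Tconv libraries 1 and 2, against 3.99 to 61.4 in the others. Leaving out the 4 libraries highest in these transcripts changes several calls below. Where this ends the call of a named proteasome gene, the loss is stated. Control Treg library 3 stood apart from its replicates in a chi-square test over genes (297 and 318 per degree of freedom, against 15.7 between the others) without kidney transcripts, treated TFH library 3 did so with them (299 and 253, against 32.1), and control Tconv library 3 differed from the others of its group, which hold them (115 and 105, against 7.07). Mitochondrially encoded transcripts averaged 2.00% to 2.75% of counts in the treated groups and 10.3% to 15.97% in the control groups, and 11 to 13 of 14 heat shock genes were higher in treated libraries of each subset. The part of these differences in the results below was not tested.

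The proteasome degrades proteins marked with ubiquitin. Its 20S core is a stack of alpha and beta rings with the proteolytic sites inside, and the 19S particle binds the ubiquitin chain, removes it and threads the substrate in with a ring of ATPases. In lymphoid cells, and more so under interferon, the constitutive catalytic subunits PSMB6, PSMB7 and PSMB5 can be replaced by PSMB9, PSMB10 and PSMB8, which forms the immunoproteasome, and PA28 (PSME1 and PSME2) caps the core in place of 19S. T cells raise proteasome output when they are activated and divide.

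Per kb of exon, the mean level over the 8 groups was highest for Psme1, at 94.3 CPM per kb, with group means from 69.4 to 128. It was followed by the alpha subunit Psma6 at 62.7, the inducible catalytic subunit Psmb8 at 53.4, Psme2 at 52.5 and the ATPases Psmc5 at 50.6 and Psmc3 at 50.5 CPM per kb. The tested subunits of the core and the 19S particle lay between 14.5 (Psmd1) and 62.7 CPM per kb, and the 7 assembly chaperones between 1.498 (Psmg3) and 15.4 CPM per kb (Psmg4). On this measure Psmb8 stood above its constitutive counterpart Psmb5, at 19.98 CPM per kb. Psmb9, at 19.9, stood below Psmb6, at 34.4, and Psmb10, at 24.4, beside Psmb7, at 25.5 CPM per kb. The length is that of all annotated exons of a gene merged, and the order between genes depends on it. It was 3381 bases for Psmb8, 899 for Psmb5, 3660 for Psmb9 and 1872 for Psmb6. In CPM without the length, the mean log2 ratio of Psmb9 to Psmb6 was above 0 in every treated group, control Treg and control TFR. It was below 0 in control Tconv and control TFH. Treated TFR libraries had the highest of the 8 group means for 30 of the 48 tested genes, a count that was not taken over all genes. Where exons of another gene overlap (25.5% of the exon length of Psmd9, 21.2% of Psmc3ip, 14.7% of Psmb8, 12.1% of Psmb5, 11.8% of Psmb7, 10.1% of Psmd13 and under 10% of the others), the strand setting of the counting is not given and some reads may belong to the neighbour.

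Treated TFR libraries carried more proteasome RNA than any other group. All 50 genes together summed to 4478, 4855 and 4899 CPM in treated TFR libraries, against 3446, 3599 and 3585 CPM in control TFR libraries, 3353, 3038 and 3273 CPM in treated TFH libraries and 3724, 3764 and 3508 CPM in treated Treg libraries. The treated TFR libraries lay above every library of the other groups in this sum. The 20S core summed to 1800 ± 93.5 CPM in treated TFR and 1357 ± 56.2 CPM in control TFR libraries, and the 19S particle to 2052 ± 100.3 and 1502 ± 29.3 CPM. In bulk RNA a change in the share of cells that carry much of a transcript and a change in the amount per cell cannot be told apart.

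**Figure D1:**
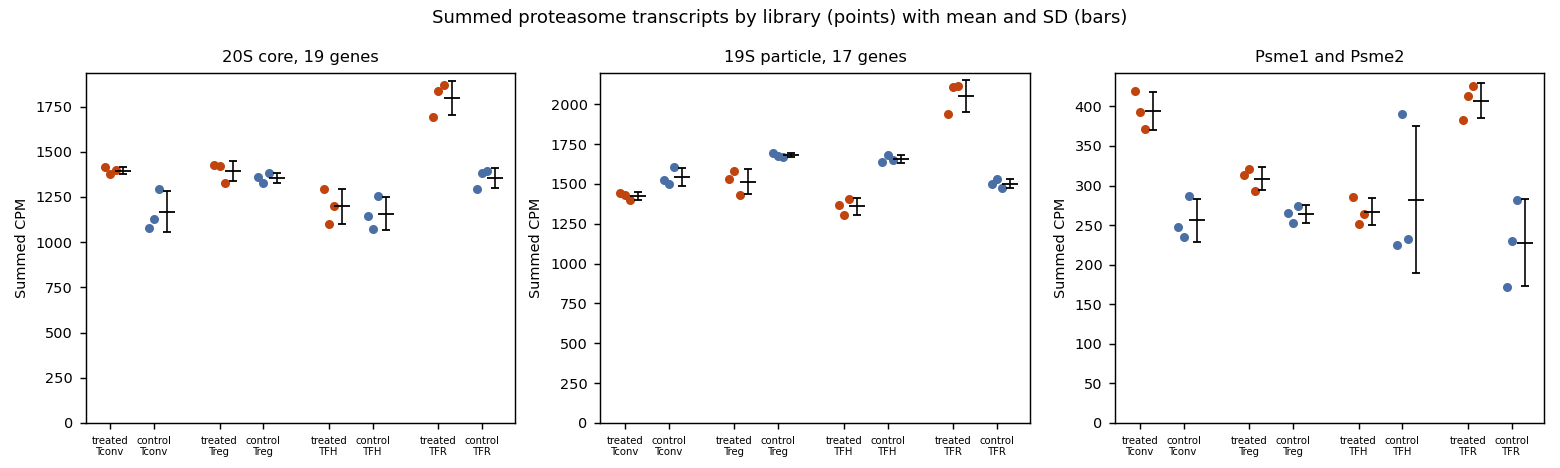
Summed CPM of the 20S core (19 genes), the 19S particle (17 genes) and the PA28 genes Psme1 and Psme2 in each library (points, treated red and control blue) with mean and SD (black bars) by group. Treated TFR libraries stand highest in the first and second panel, at 1800 ± 93.5 and 2052 ± 100.3 CPM. They share the top of the PA28 panel with treated Tconv libraries and control TFH library 2 (389.8 CPM).

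Within treated mice, 20 of 48 proteasome genes were higher in TFR than in TFH libraries and 0 were lower (edgeR's quasi-likelihood test with Benjamini-Hochberg adjustment, 0 lower at an unadjusted p under 0.05 and 0 by DESeq2), where 4.61% of all 18789 tested genes were higher and 4.96% lower. The median log2 fold change was 0.60 over the proteasome genes and -0.13 over all genes, and 46 of 48 were above 0. Every treated TFR library exceeded every treated TFH library for 43 of 48 genes, and the reverse held for 0, against 21% and 20.8% of all genes. Against treated Treg libraries, 7 of 48 genes were higher and 0 lower, against 1.78% and 2.83% of all genes. Lower genes were also 0 at an unadjusted p under 0.05 and 0 by DESeq2. A fit on only the libraries compared gave 38 higher and 2 lower. With all libraries in the fit, the median against treated Treg was 0.41 over the proteasome genes and 0.12 over all genes. There 42 genes had no overlap in the higher and 2 in the lower direction, against 24.7% and 21.6% of all genes. Treated TFR libraries lay above all libraries of the other 3 treated subsets for 34 of 48 genes. Treated TFH libraries lay below all libraries of the other treated subsets for 13. These counts were not taken over all genes, so no share stands beside them.

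Treatment within TFR gave 18 genes higher and 1 lower, against 15.6% and 6.39% of all genes. Here the median over the proteasome genes, 0.49, stood beside a median of 0.40 over all genes. Fitted on only the libraries compared, these medians were 0.45 and 0.13. Non-overlapping groups in the higher direction were seen for 28 of 48 genes and in the lower direction for 1, against 33% and 10.4% of all genes. The 3 comparisons of treated TFR libraries share those libraries, and 5 genes (Psma2, Psmb2, Psmc1, Psmd7 and Psmd8) were higher in all of them. Without the 4 libraries with kidney transcripts the counts were 10 higher against treated TFH, 0 against treated Treg and 13 against control TFR. The medians were then 0.64, 0.44 and 0.53. Shares and medians of all genes in that fit are not given here, so these counts and medians stand without a background. Between the remaining libraries (2 against 2, 2 against 3 and 2 against 3), 45, 44 and 30 genes were without overlap in the higher direction. Fewer libraries separate more readily and the shares of all genes were not computed, so these counts cannot be set against those above. Leaving out single libraries gave 12 calls against treated TFH without treated TFH 2, treated TFR 2 or treated TFR 3, and 0 to 3 calls against treated Treg in every such case, while 12 genes were called against control TFR without treated TFR 2.

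Cell cycle genes moved in the same libraries. Of 24 proliferation genes, 17 were higher in treated TFR than in treated TFH libraries, 5 were higher than in treated Treg and 17 were higher than in control TFR libraries, with 0 lower in each. Of all genes, 4.61%, 1.78% and 15.6% were higher and 4.96%, 2.83% and 6.39% lower in these comparisons. Their sum ran from 4504 to 5174 CPM in treated TFR libraries, against 1750 to 2012 CPM in treated TFH, 3200 to 3463 CPM in treated Treg and 1786 to 2174 CPM in control TFR libraries. The sum of 8 B cell genes ran from 51.8 to 59.0 CPM in treated TFR and from 4.55 to 27.0 CPM in control TFR libraries, with 64.8 to 69.0 CPM in treated TFH and 42.1 to 47.3 CPM in treated Treg libraries. With treatment in Treg, 17 of the 24 proliferation genes were higher and 0 lower, against 5.17% and 3.56% of all genes. The proteasome genes gave 1 call in each direction there, and 5 higher and 14 lower in a fit on only the libraries compared. The part of either list in the proteasome results was not tested.

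**Figure D2:**
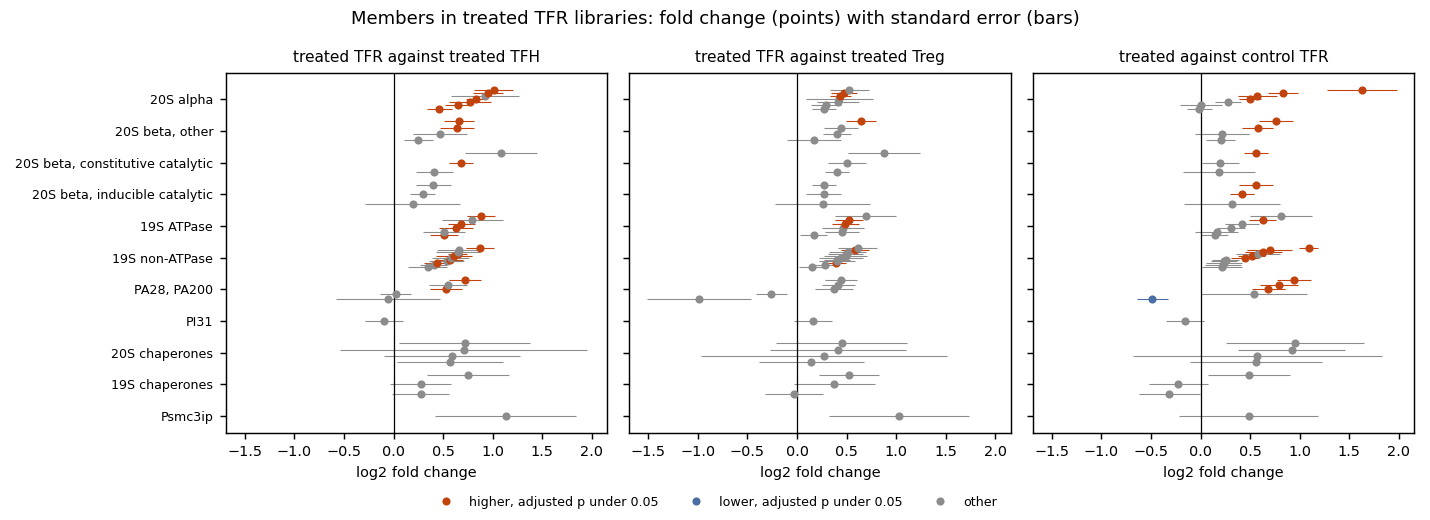
log2 fold change (x axis) with its standard error (bars) for each of the 48 tested genes, arranged by subcomplex (y axis), in the 3 comparisons of treated TFR libraries. Red marks genes higher and blue genes lower at an adjusted p under 0.05, and 20, 7 and 18 genes are red in the panels from left to right, with Psme4 the only blue one.

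Alpha subunits form the outer rings that gate the core, and 6 of the 7 tested were higher in treated TFR than in treated TFH libraries, with a median log2 fold change of 0.83. Psma2 had 159, 161 and 170 CPM in treated TFR libraries, against 105, 78.8 and 90.8 CPM in treated TFH libraries, 122, 123 and 117 CPM in treated Treg libraries and 114, 106 and 127 CPM in control TFR libraries. All 3 treated TFR libraries were above each of these groups. On the log2 scale Psma2 rose by 0.83 against treated TFH (adjusted p = 1.7e-05) and 0.44 against treated Treg (adjusted p = 0.018). Against control TFR it rose by 0.50 ± 0.11 (SE) (adjusted p = 0.0022). The call against treated Treg was lost without any 1 library of that comparison, and without the kidney-transcript libraries (0.45). Psma4 had 128, 129 and 137 CPM in treated TFR libraries and 69.4, 96.8 and 53.8 CPM in control TFR libraries, a log2 fold change of 0.83 ± 0.15 (adjusted p = 0.00036). It was also the gene that rose with treatment in Treg, with 112, 107 and 103 CPM in treated and 76.6, 76.3 and 74.9 CPM in control Treg libraries (0.49 ± 0.15, adjusted p = 0.04), a call that was lost when any 1 library of that comparison was left out, and without the kidney-transcript libraries (0.51, adjusted p = 0.071).

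Psma5 rose with treatment in TFR and in TFH. It had 50.4, 52.3 and 46.5 CPM in treated TFR and 17.4, 23.2 and 7.2 CPM in control TFR libraries (log2 fold change 1.63 ± 0.35, adjusted p = 0.002). In TFH it had 29.2, 20.1 and 29.3 CPM in treated TFH and 5.22, 15.8 and 17.4 CPM in control TFH libraries (1.03, adjusted p = 0.04). The groups did not overlap in either subset, but the TFH call was lost without treated TFH 1, treated TFH 3 or control TFH 1 (0.92, 0.95 and 0.65), and without the kidney-transcript libraries (0.95, adjusted p = 0.15). In Tconv the order was the other way, with 20.9, 25.8 and 26.9 CPM in treated and 32, 35.3 and 28.8 CPM in control libraries, which did not pass the test. Control TFH libraries accordingly lay below control Tconv libraries for Psma5 (-1.32, adjusted p = 0.0096), a call lost without the kidney-transcript libraries (-1.18, adjusted p = 0.17). In control mice Psma1 was higher in TFR, with 75.5, 88.3 and 98.9 CPM, than in TFH, with 25.4, 29.4 and 59.4 CPM (1.17, adjusted p = 0.0013). Psma3 was higher in TFR, with 125, 157 and 170 CPM, than in Treg, with 109, 101 and 124 CPM (0.44, adjusted p = 0.031). That Psma3 call was lost without control Treg 1, control Treg 2, control TFR 2 or control TFR 3 (0.43, 0.37, 0.41 and 0.34).

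Among the beta subunits without a catalytic site, Psmb2 and Psmb3 rose with treatment in TFR and stood higher in treated TFR than in treated TFH libraries. Psmb2 had 69.5, 68.8 and 72.7 CPM in treated TFR libraries, against 47.7, 40.2 and 45.3 CPM in treated TFH, 43.8, 46.8 and 44 CPM in treated Treg and 50.7, 41 and 49.8 CPM in control TFR libraries. The treated TFR libraries were clear of all 3 groups (0.66, adjusted p = 0.006, 0.65, adjusted p = 0.014, and 0.58 ± 0.15, adjusted p = 0.0099). Without the kidney-transcript libraries these 3 calls did not pass (0.69, 0.65 and 0.60, adjusted p = 0.10, 0.12 and 0.063). Psmb3 had 58, 63.7 and 62.8 CPM in treated TFR and 36.1, 35 and 37.5 CPM in control TFR libraries (0.76, adjusted p = 0.0027). Its difference from treated TFH libraries (0.64, adjusted p = 0.016) was lost without treated TFH 2, treated TFH 3, treated TFR 2 or treated TFR 3 (0.59 to 0.63) and without the kidney-transcript libraries (0.63, adjusted p = 0.22). Psmb1 and Psmb4 were not called in the treated TFR comparisons.

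The 3 constitutive catalytic subunits did not move as a set. Psmb7, which carries the trypsin-like site, had 116, 126 and 123 CPM in treated TFR libraries, against 72.6, 70.4 and 84.6 CPM in treated TFH libraries and 88.1, 86.1 and 73.3 CPM in control TFR libraries. It was higher in both comparisons (0.68, adjusted p = 0.00056, and 0.56 ± 0.12, adjusted p = 0.0022). Psmb6, with the caspase-like site, fell with treatment in TFH, to 57.7, 45.1 and 53.6 CPM in treated libraries, against 93.4, 113 and 76.8 CPM in control libraries (-0.85 ± 0.19, adjusted p = 0.0031). Psmb5, with the chymotrypsin-like site, passed the test in no comparison and had 24.1, 27.6 and 27.9 CPM in treated TFR and 20.9, 13.7 and 35.4 CPM in control TFR libraries. Its control libraries spread as widely in TFH, from 9.21 to 31.3 CPM, against 9.85 to 16.1 CPM in treated TFH libraries.

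With treatment in Tconv, 2 of the 3 inducible catalytic subunits, Psmb8 and Psmb9, rose, while Psmb10 did not pass the test. In treated against control Tconv libraries, 4 of 48 genes rose and 1 fell, close to the 6.89% and 3.05% of all genes, with a median of 0.05 over the proteasome genes and 0.02 over all genes. Non-overlapping groups were seen for 18 genes higher and 12 lower, against 27.5% and 15.4% of all genes. Fitted on only the libraries compared, 8 genes rose and 17 fell, and by DESeq2 4 rose and 5 fell. Shares of all genes in those fits are not given here. The 4 that rose by edgeR's test with all libraries were Psmb9, Psmb8, the PA28 gene Psme1 and the 19S subunit Psmd8. Psmb9 had 77.5, 76.1 and 73.5 CPM in treated and 41.1, 48.8 and 56.1 CPM in control Tconv libraries (0.64 ± 0.12, adjusted p = 0.001), and Psmb8 had 217, 191 and 195 CPM in treated and 123, 114 and 164 CPM in control Tconv libraries (0.59 ± 0.17, adjusted p = 0.034). Both genes had all treated above all control libraries. Leaving out any 1 Tconv library except control Tconv 3 ended the Psmb8 call, with adjusted p-values from 0.068 to 0.17. None of the 5 calls passed without the kidney-transcript libraries, which leaves control Tconv library 3 alone in its group, and the log2 fold changes were then 0.44 for Psmb9, 0.30 for Psmb8, 0.59 for Psme1, 0.32 for Psmd8 and -0.64 for Psmd7 (adjusted p = 0.37, 0.96, 0.59, 0.60 and 0.23).

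In the other subsets the inducible subunits gave mixed values. Psmb8 had 213, 250 and 270 CPM in treated TFR and 153, 187 and 157 CPM in control TFR libraries (0.56, adjusted p = 0.025), and Psmb9 had 77.5, 96.8 and 102 CPM in treated TFR and 69.9, 67 and 69.9 CPM in control TFR libraries (0.42, adjusted p = 0.018). The Psmb8 call was lost without treated TFR 2, treated TFR 3, control TFR 1 or control TFR 3 (0.55, 0.49, 0.51 and 0.53), and the Psmb9 call without treated TFR 2 or treated TFR 3 (0.39 and 0.35). Neither gene was called in Treg or TFH, where Psmb8 had 219, 213 and 176 CPM in treated and 175, 180 and 174 CPM in control Treg libraries, and 190, 189 and 176 CPM in treated and 162, 85.8 and 164 CPM in control TFH libraries. Psmb10 was higher in treated TFH, with 44.5, 44.5 and 40.7 CPM, than in control TFH libraries, with 16.9, 1.55 and 24.2 CPM (1.51 ± 0.50, adjusted p = 0.035), a call kept in no fit without 1 library except that without control TFH 3, and lost without the kidney-transcript libraries (1.54, adjusted p = 0.072). In control mice Psmb10 was lower in TFH than in Tconv (-1.498, adjusted p = 0.033), while Psmb9 was higher in Treg and in TFH than in Tconv (0.63, adjusted p = 0.0011, and 0.53, adjusted p = 0.0038). None of these calls passed without the kidney-transcript libraries, which leaves 1 control Tconv library (-1.87, 0.43 and 0.32 in that order, adjusted p = 0.075, 0.30 and 0.31). The Psmb10 call was also lost without control Tconv 2, control Tconv 3, control TFH 1 or control TFH 2 (-1.58, -1.27, -1.57 and -1.05). None of the 3 inducible subunits was called between treated TFR and treated TFH libraries (median 0.29, 0 at an adjusted p under 0.05 by edgeR's quasi-likelihood test).

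A log2 ratio within a library removes what both subunits of a catalytic pair share. The Psmb9 to Psmb6 ratio was higher in treated libraries by 0.58 on average over the 4 subsets (two-sided exact permutation within subsets, p = 0.0002, adjusted p = 0.0006 over 3 ratios), and the Psmb8 to Psmb5 ratio by 0.69 (p = 0.0034, adjusted p = 0.0051, the same exact permutation). The Psmb8 to Psmb5 differences were 1.03 in Tconv and 0.55 in Treg, where the groups did not overlap, and 0.91 in TFH and 0.28 in TFR, where they did. The Psmb10 to Psmb7 ratio differed by 0.50 (exact permutation p = 0.26). Its differences were 0.07 in Tconv and 0.06 in TFR, with overlap, and -0.18 in Treg, where all treated lay below all control libraries. In TFH the difference was 2.04, and all treated lay above all control libraries. The TFH values were -0.70, -0.66 and -1.05 in treated and -2.07, -5.22 and -1.23 in control libraries. The lowest came from control TFH 2, the shallowest library (2.54 M counts). In Tconv the Psmb9 to Psmb6 ratio was 0.37, 0.44 and 0.28 in treated and -0.39, -0.29 and -0.36 in control libraries. In Treg it was 0.65, 0.67 and 0.59 in treated and -0.01, 0.25 and 0.11 in control libraries, and in TFH 0.41, 0.61 and 0.57 in treated and -0.48, -0.61 and -0.13 in control libraries. In these 3 subsets all treated libraries lay above all control libraries, the most that 3 against 3 allow (exact permutation p = 0.1, the smallest possible). In TFR the groups overlapped, with 0.19, 0.49 and 0.51 in treated and 0.08, 0.83 and -0.16 in control libraries. A ratio rises when its inducible subunit rises or its constitutive one falls. With treatment in Tconv, Psmb9 was called higher (0.64) and no constitutive subunit was called. In TFH, Psmb6 was called lower (-0.85) and Psmb9 was not called. In Treg no catalytic subunit was called, with log2 fold changes from -0.50 to -0.04 for the constitutive and -0.22 to 0.20 for the inducible ones. The part of mitochondrial or heat shock transcripts in these ratios was not tested.

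**Figure D3:**
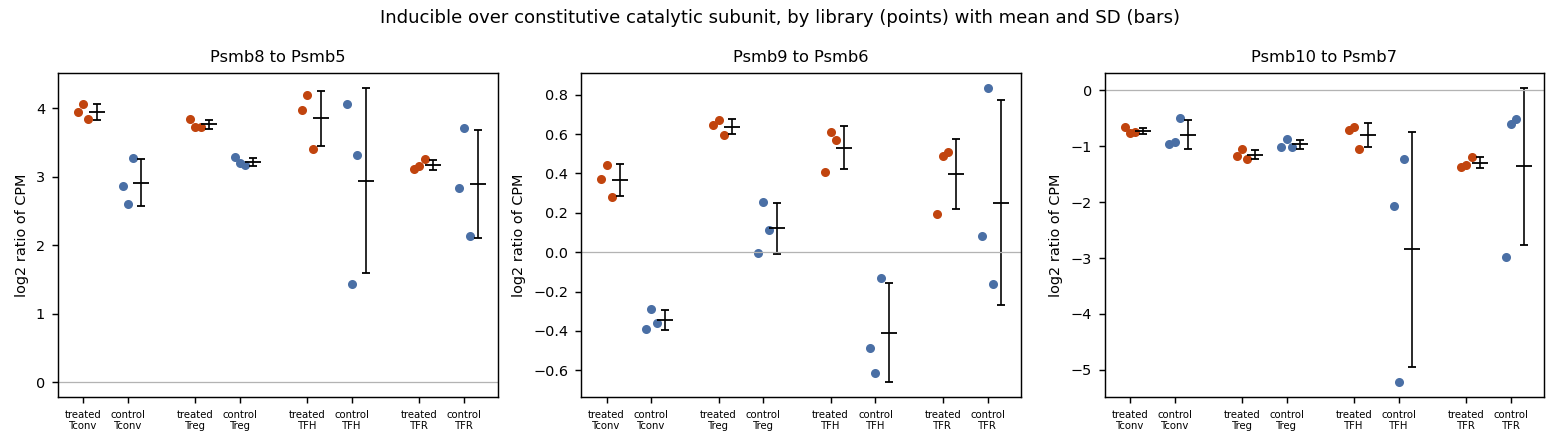
log2 ratio of CPM (y axis) of each inducible subunit to its constitutive counterpart in each library (points, treated red and control blue), with mean and SD (black bars) by group. In the middle panel all treated points of Tconv, Treg and TFH lie above their control points, with means of 0.36, 0.64 and 0.53 against -0.35, 0.12 and -0.41.

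The promoters of Psmb8 and Psme1 are shown because these interferon-responsive genes rose in both Tconv and TFR. Both carry short words known from interferon signalling. Psmb9 rose in both subsets too, but neither of the words marked below was found in its promoter, which is not shown. The sequences are from RefSeq (GRCm38.p6), 250 bases before to 50 bases after the start, 5′ to 3′ on the gene's strand. Psmb8 lies at chr17:34197945-34198244 on the + strand, with the STAT word TTCNNNGAA in capitals, and Psme1 at chr14:55578244-55578543 on the + strand, with the interferon-stimulated word made of GAAA, NN and GAAA in turn, on its reverse strand, in capitals.
Psmb8 promoter: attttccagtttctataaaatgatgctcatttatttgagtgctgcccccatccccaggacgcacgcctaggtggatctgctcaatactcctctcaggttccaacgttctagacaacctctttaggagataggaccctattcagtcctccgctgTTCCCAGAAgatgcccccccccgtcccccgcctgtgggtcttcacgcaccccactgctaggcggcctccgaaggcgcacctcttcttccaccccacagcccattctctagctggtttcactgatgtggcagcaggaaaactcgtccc
Psme1 promoter: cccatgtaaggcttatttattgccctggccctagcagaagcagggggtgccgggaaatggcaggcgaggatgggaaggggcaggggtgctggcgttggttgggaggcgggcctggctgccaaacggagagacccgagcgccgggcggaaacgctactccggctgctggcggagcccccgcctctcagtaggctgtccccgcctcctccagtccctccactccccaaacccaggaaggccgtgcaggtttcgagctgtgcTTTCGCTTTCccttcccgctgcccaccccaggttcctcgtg
Both strands were searched. The word of Psme1 was found in 11.1% of the 45 windows of 42 matched proteasome genes and in 3.44% of 32851 windows of all genes, and TTCNNNGAA in 6.67% and 8.3% of them. The words are matches of letters and not measured sites.

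The ATPases drive unfolding in the base of the 19S particle, and they separated TFR from TFH among treated mice. All 6 were without overlap in the higher direction against treated TFH, and 4 passed the test, with a median log2 fold change of 0.66. Psmc1 had 106, 114 and 116 CPM in treated TFR libraries, against 64.4, 53.9 and 63.8 CPM in treated TFH, 80.9, 84.2 and 74.2 CPM in treated Treg and 76.5, 74.2 and 66.5 CPM in control TFR libraries. Treated TFR libraries exceeded all 3 groups (0.88, adjusted p = 0.00015, 0.49, adjusted p = 0.044, and 0.63 ± 0.14, adjusted p = 0.0024). The Psmc1 call against treated Treg was lost without any 1 library of that comparison, and without the kidney-transcript libraries (0.52). With treatment in TFR, Psmc1 was the only ATPase called.

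With treatment in TFH, 4 of the 6 ATPase genes fell, 1 more lay below 0 and 1 above it without passing the test. Over all proteasome genes, 2 were higher and 6 lower in treated TFH libraries, against 16.5% and 5.86% of all genes, with a median of -0.13 over the proteasome genes and 0.42 over all genes. Non-overlapping groups were seen for 4 genes higher and 8 lower, against 28.5% and 6.81% of all genes. The median of the ATPases was -0.50. Psmc6 had 70.2, 63.5 and 71.2 CPM in treated TFH and 108, 96.6 and 110 CPM in control TFH libraries (-0.62 ± 0.14, adjusted p = 0.0026). Psmc4 had 76.9, 55.8 and 79.9 CPM in treated and 88.3, 112 and 126 CPM in control TFH libraries (-0.62 ± 0.22, adjusted p = 0.045). Both had all treated below all control libraries, and the Psmc4 call was kept in no fit without 1 library except that without control TFH 1, whereas Psmc3 and Psmc1, named here after their values were seen, were lower with overlapping groups. Without the kidney-transcript libraries, 0 genes were higher and 3 lower (Psmc6, Psmc3 and Psmb6), while Psmc4 and Psmc1 did not pass (-0.71 and -0.50, adjusted p = 0.082 and 0.078). Fitted on only the libraries compared, 2 proteasome genes were called lower and 0 higher. Without control TFH library 3 there were 15 calls (7 higher and 8 lower), against 4 or 5 without each treated TFH library.

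Psmc6 also separated the treated subsets. It was lower in treated TFH than in treated Tconv libraries, which had 98.8, 113 and 106 CPM (-0.63, adjusted p = 0.0019). In that comparison 0 of 48 genes were higher and 4 lower, against 10.3% and 7.77% of all genes. Higher genes were also 0 at an unadjusted p under 0.05 and 0 by DESeq2. A fit on only the libraries compared gave 3 higher and 16 lower. Without overlap were 3 genes higher and 20 lower, against 28.6% and 26.3% of all genes. Besides Psmc6, the 3 genes called with all libraries in the fit were Psma2 (-0.56, adjusted p = 0.00061), Psmd8 (-0.42, adjusted p = 0.0028) and Psme1 (-0.65, adjusted p = 0.02). The Psme1 call was lost without treated Tconv 1, treated Tconv 2, treated TFH 2 or treated TFH 3 (-0.65 to -0.61). It was also lost without the kidney-transcript libraries (-0.64, adjusted p = 0.078). The treated Treg and treated Tconv libraries gave 0 calls in either direction by edgeR's quasi-likelihood test, against 6.37% and 5.54% of all genes, with 4 higher and 2 lower at an unadjusted p under 0.05 and with 3 higher and 1 lower by DESeq2. Without overlap were 13 higher and 14 lower, against 27.8% and 30.1% of all genes.

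Among the 19S lid and ubiquitin-binding subunits, Psmd8, a structural lid subunit, had the smallest p with treatment in TFR. It had 167, 179 and 183 CPM in treated TFR and 90.7, 69.3 and 88.1 CPM in control TFR libraries, a log2 fold change of 1.09 ± 0.10 (adjusted p = 4.1e-08). In Tconv it had 154, 150 and 148 CPM in treated and 112, 103 and 122 CPM in control libraries (0.42 ± 0.09, adjusted p = 0.0044), while in TFH it had 114, 109 and 114 CPM in treated and 119, 112 and 116 CPM in control libraries. The order of TFR among the subsets thus differed with treatment. Psmd8 was higher in treated TFR than in treated TFH and treated Treg libraries (0.65, adjusted p = 7.1e-05, and 0.40, adjusted p = 0.015). The call against treated Treg was lost without treated Treg 1, treated Treg 3, treated TFR 2 or treated TFR 3 (0.42, 0.34, 0.38 and 0.37). It was also lost without the kidney-transcript libraries (0.43). Psmd8 was lower in control TFR than in control TFH and control Treg libraries (-0.49, adjusted p = 0.0023, and -0.50, adjusted p = 0.0019).

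Psmd7 and Psmd4 also rose with treatment in TFR, and of these only Psmd4 was called lower in control TFR than in another control subset. Psmd7, the lid partner of the deubiquitinase PSMD14, had 72.4, 78.9 and 77.2 CPM in treated TFR libraries, against 60.8, 64.6 and 41.1 CPM in control TFR libraries (0.45, adjusted p = 0.025). That call was lost without treated TFR 2, treated TFR 3 or control TFR 3 (0.43, 0.45 and 0.29) and without the kidney-transcript libraries (0.50, adjusted p = 0.086). In Tconv it was the gene that fell, to 46.7, 46.1 and 45 CPM in treated libraries, against 63.6, 62.7 and 71.9 CPM in control libraries (-0.52 ± 0.14, adjusted p = 0.017), a call lost without any 1 treated Tconv library or without control Tconv 3 (-0.53 to -0.45). Psmd4, a receptor for ubiquitin chains, had 139, 153 and 151 CPM in treated TFR and 109, 110 and 90.8 CPM in control TFR libraries (0.52, adjusted p = 0.01), and was lower in control TFR than in control Treg libraries, which had 148, 159 and 154 CPM (-0.57, adjusted p = 0.011). Psmd11, which stabilizes the lid on the base, fell with treatment in Treg, to 93.3, 92.2 and 85.5 CPM in treated libraries, against 123, 111 and 132 CPM in control libraries (-0.44 ± 0.13, adjusted p = 0.042, and -0.42, adjusted p = 0.10, without the kidney-transcript libraries). It also fell in TFH, to 84.4, 93.8 and 86.6 CPM in treated, against 141, 115 and 96.5 CPM in control libraries (-0.41, adjusted p = 0.031). The TFH call was lost without treated TFH 1, treated TFH 3 or control TFH 1 (-0.40, -0.40 and -0.25), and without the kidney-transcript libraries (-0.39, adjusted p = 0.14). Psmd14 itself was called only against treated TFH, with 95.4, 95.3 and 96.6 CPM in treated TFR and 66.8, 67.4 and 59.5 CPM in treated TFH libraries (0.57, adjusted p = 0.007, and 0.52, adjusted p = 0.16, without the kidney-transcript libraries).

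Treatment in Treg gave 1 gene higher (Psma4) and 1 lower (Psmd11), against 5.17% and 3.56% of all genes. Non-overlapping groups were seen for 9 genes higher and 15 lower, against 27.4% and 19% of all genes. Both calls were lost in every fit that left out 1 library of the comparison and without the kidney-transcript libraries. A fit on only the libraries compared called 19 genes, 5 higher and 14 lower. In control mice 1 gene was higher and 0 lower in Treg than in Tconv, against 5.9% and 3.4% of all genes. Lower genes were also 0 at an unadjusted p under 0.05 and 0 by DESeq2. A fit on only the control Treg and Tconv libraries gave 6 higher and 1 lower. Control TFH against control Tconv gave 4 higher and 3 lower (9.89% and 15.1% of all genes), control TFR against control Treg 1 higher and 2 lower (2.28% and 7.46%), and control TFR against control TFH 3 higher and 2 lower (7.82% and 8%). Without the kidney-transcript libraries 0, 0, 3 and 3 genes were called in these 4 comparisons. In the order of these 4 comparisons, 12, 5, 2 and 2 genes were without overlap in the higher direction (18.4%, 9.43%, 6.16% and 5.76% of all genes) and 2, 4, 8 and 1 in the lower direction (16.6%, 25.6%, 17.4% and 4.77%). The medians over the proteasome genes were 0.09, 0.03, -0.08 and -0.01 in these 4 comparisons. Between TFR and Treg, and between TFR and TFH, these medians were 0.41 and 0.60 among treated libraries. Of these 2 contrasts between treated and control mice, that of TFR and Treg was tested gene by gene and is given below, and that of TFR and TFH was not tested.

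Summed 19S transcripts were lower relative to those of the 20S core in treated than in control libraries of Tconv, Treg and TFH. The 19S to 20S ratio of summed CPM was 1.02 ± 0.0197 in treated and 1.33 ± 0.0876 in control Tconv libraries, and 1.09 ± 0.0222 in treated and 1.24 ± 0.0291 in control Treg libraries. It was 1.14 ± 0.071 in treated and 1.44 ± 0.126 in control TFH libraries, and 1.14 ± 0.00914 in treated and 1.11 ± 0.0508 in control TFR libraries (SD, n = 3 each). In Tconv, Treg and TFH every treated library lay below every control library, and in TFR the groups overlapped. These ratios are given without a test, since they sum over the chosen genes.

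The promoters of Psmd8 and Psmc1 are shown because these genes were higher in all 3 comparisons of treated TFR libraries, one from the lid and one from the base. Psmc1 lies at chr12:100109952-100110251 on the + strand (GRCm38.p6, RefSeq), with CCAAT and the ETS-type word CCGGAAGT, found on the reverse strand, in capitals. Psmd8 lies at chr7:29180624-29180923 on the - strand, where none of the 6 words searched was found.
Psmc1 promoter: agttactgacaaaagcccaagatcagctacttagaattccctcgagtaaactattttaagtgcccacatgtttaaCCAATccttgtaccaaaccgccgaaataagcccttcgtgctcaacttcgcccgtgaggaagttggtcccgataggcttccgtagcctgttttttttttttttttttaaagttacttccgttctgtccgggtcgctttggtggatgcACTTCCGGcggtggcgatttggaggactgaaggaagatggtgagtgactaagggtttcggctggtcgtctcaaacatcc
Psmd8 promoter: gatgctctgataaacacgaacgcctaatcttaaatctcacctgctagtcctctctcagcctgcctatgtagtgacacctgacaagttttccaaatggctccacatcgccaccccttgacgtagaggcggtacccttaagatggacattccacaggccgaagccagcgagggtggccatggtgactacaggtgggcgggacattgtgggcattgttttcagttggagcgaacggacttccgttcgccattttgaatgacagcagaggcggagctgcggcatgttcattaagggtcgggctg
On both strands, CCGGAAGT was found in 22.2% of the 45 proteasome windows and in 3.89% of all windows, CCAAT in 33.3% and 37.4%, the antioxidant-type word TGACNNNGC in 13.3% and 12.4%, and the heat shock word made of TTC, NN, GAA, NN and TTC in turn in 0% and 0.603%. The words can overlap one another, and a match is a description of letters only.

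PA28 joins PSME1 and PSME2 into a ring that opens the core without ubiquitin. Psme1 had 303, 286 and 262 CPM in treated and 177, 164 and 190 CPM in control Tconv libraries (0.68 ± 0.19, adjusted p = 0.024). That call was lost without treated Tconv 1, treated Tconv 2, control Tconv 1 or control Tconv 2 (0.63, 0.68, 0.69 and 0.63). In TFR Psme1 had 246, 269 and 279 CPM in treated and 113, 170 and 176 CPM in control TFR libraries (0.79, adjusted p = 0.0051). Treated exceeded control libraries throughout in both subsets, whereas in TFH the values were 194, 173 and 175 CPM in treated and 161, 326 and 161 CPM in control libraries. Psme2 had 137, 144 and 146 CPM in treated TFR and 58.4, 59.6 and 106 CPM in control TFR libraries (0.94 ± 0.17, adjusted p = 0.0003). Reads of Psme2 and of the near-identical Psme2b could be split between them, and Psme2b was not called with treatment in any subset. Its values of 34.4, 31.4 and 33.9 CPM in treated and 16.3, 13.7 and 16.4 CPM in control Treg libraries are uncertain for that reason.

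The nuclear activators went apart in TFR. Psme3, PA28 gamma, had 142, 160 and 156 CPM in treated TFR and 108, 116 and 60.6 CPM in control TFR libraries (0.68, adjusted p = 0.0054). Psme4, which encodes PA200, was the gene that fell there, to 117, 115 and 106 CPM in treated libraries, against 139, 162 and 173 CPM in control libraries (-0.49 ± 0.16, adjusted p = 0.03). The call was kept in no fit without 1 library except that without control TFR 1 (lowest and highest -0.51 and -0.41 where it was lost), and it did not pass without the kidney-transcript libraries (-0.50, adjusted p = 0.083). Psmf1, the inhibitor PI31, was not called and had 44.7, 44 and 42.9 CPM in treated and 62.7, 59.7 and 67.9 CPM in control Treg libraries. The chaperones were not called in any comparison, as with Psmg1, which had 10.9, 12.2 and 11.8 CPM in treated and 6.34, 5.88 and 4.38 CPM in control Treg libraries, and Psmd10, which had 21, 20.8 and 22 CPM in treated and 24.5, 6.32 and 14.6 CPM in control TFR libraries. Psmc3ip was not called either, at 9.08, 11 and 13.1 CPM in treated and 7.75, 7.08 and 8.91 CPM in control TFR libraries.

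**Figure D4:**
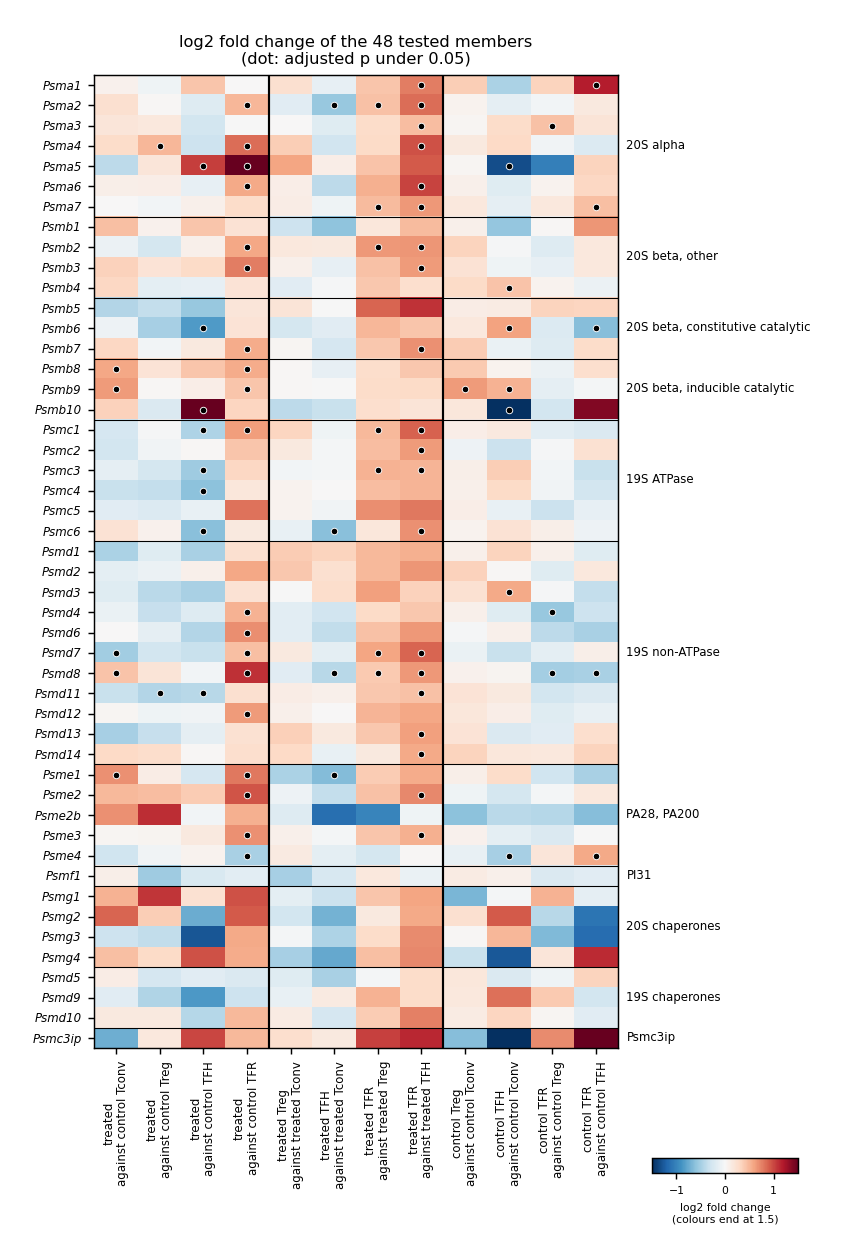
log2 fold change (colour, ending at 1.5 in either direction) of the 48 tested genes (from top to bottom by subcomplex) in the 12 comparisons of treatment and subset (from left to right), with a dot where the adjusted p was under 0.05. The column of treated TFR against treated TFH is red for 46 genes with 20 dots, and 5 of the 6 ATPase genes of treated against control TFH are blue, 4 of them with dots.

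Differences of treatment effects were tested directly. Between TFR and Treg, 7 genes responded more positively in TFR and 0 less, against 5.24% and 2.26% of all genes. Genes that responded less were also 0 at an unadjusted p under 0.05 and 0 by DESeq2. A fit on only the libraries compared gave 13 more positive and 1 less. The effect was higher in TFR for Psmd8 by 0.90 (adjusted p = 0.00032), Psmd4 by 0.86 (adjusted p = 0.0099) and Psmb2 by 0.85 (adjusted p = 0.02). It was also higher for Psmd7 by 0.73 (adjusted p = 0.026), Psmd11 by 0.68 (adjusted p = 0.031), Psmc1 by 0.64 (adjusted p = 0.047) and Psmb7 by 0.60 (adjusted p = 0.036). Between TFH and Tconv, 1 gene responded more positively in TFH and 5 less, against 14.4% and 5.22% of all genes. Psma5 was the positive one (1.42, adjusted p = 0.047), and Psme1 (-0.93, adjusted p = 0.024), Psmc6 (-0.84, adjusted p = 0.0071), Psmb6 (-0.77, adjusted p = 0.048), Psmb9 (-0.54, adjusted p = 0.037) and Psmd8 (-0.47, adjusted p = 0.023) the negative ones. Without the kidney-transcript libraries the TFR and Treg difference kept Psmd8 and Psmd4 (0.94 and 0.90, adjusted p = 0.0019 and 0.03), and the TFH and Tconv difference gave 0 calls. Psmd8 and Psmd4 in the first and Psmc6 in the second were also the genes called in every fit without 1 library. Without control Treg 3 the first gave 4 calls.

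Other genes of the pathway were read from lists chosen by function. Of 11 partners of the proteasome outside the symbol rule, 3 were higher and 1 lower with treatment in TFR, where 15.6% and 6.39% of all genes were, and 0, 0 and 0 higher and 0, 1 and 1 lower in Tconv, Treg and TFH. Over all genes, 6.89%, 5.17% and 16.5% were higher and 3.05%, 3.56% and 5.86% lower with treatment in Tconv, Treg and TFH, and the counts of the following lists are read against these shares. The deubiquitinase Uchl5 had 37.6 ± 1.2 CPM in treated and 15.7 ± 3.16 CPM in control TFR libraries (1.26, adjusted p = 0.00031), and Pomp, the maturation factor of the core, had 67.6 ± 5.32 CPM in treated and 30.6 ± 20.4 CPM in control TFR libraries (1.14, adjusted p = 0.011). Akirin2, which carries proteasomes into the nucleus, fell to 45.2 ± 3.07 CPM in treated TFR libraries, against 75.5 ± 6.39 CPM in control TFR libraries (-0.74, adjusted p = 0.005), and to 37.1 ± 1.94 CPM in treated Treg, against 66.5 ± 2.42 CPM in control Treg libraries (-0.84, adjusted p = 0.0035).

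Of 10 genes that control proteasome gene expression, 0, 0, 0 and 1 were higher and 2, 3, 2 and 3 lower with treatment in Tconv, Treg, TFH and TFR (edgeR's quasi-likelihood test). Nfe2l1, the factor that raises proteasome genes when the proteasome is inhibited, had 65.3 ± 4.85 CPM in treated and 170.1 ± 71.2 CPM in control Tconv libraries (-1.38, adjusted p = 0.0051), where the control spread includes the kidney-transcript libraries. Nfe2l2, its relative in the oxidative stress response, fell to 27.0 ± 0.694 CPM in treated TFR, against 58.0 ± 7.96 CPM in control TFR libraries (-1.10, adjusted p = 3e-05), and also in TFH (-0.80, adjusted p = 0.00097) and Treg (-0.67, adjusted p = 0.0071). Stat3 fell in the same 3 subsets (-0.64, -0.43 and -0.78 in TFR, TFH and Treg). Of 17 ubiquitin and delivery genes, 4, 2, 6 and 8 were higher and 3, 2, 3 and 2 lower in Tconv, Treg, TFH and TFR. The polyubiquitin genes were higher in all 4 subsets, with Ubb at 1372 ± 83.4 CPM in treated and 719 ± 61.8 CPM in control Tconv libraries (0.93, adjusted p = 2.1e-07).

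Of 13 genes of MHC class I presentation, which use peptides the proteasome makes, 7, 4, 7 and 7 were higher and 0, 3, 0 and 0 lower with treatment in Tconv, Treg, TFH and TFR (edgeR's quasi-likelihood test with Benjamini-Hochberg adjustment). Nlrc5, the activator of class I genes and of Psmb9, had 433.9 ± 11 CPM in treated and 196.7 ± 25.5 CPM in control Tconv libraries (1.14, adjusted p = 3.4e-08), and 371 ± 30.4 CPM in treated and 384.3 ± 29.6 CPM in control TFR libraries, which did not pass the test. Calr, a chaperone of class I loading, was higher in every subset, with 926.9 ± 49.5 CPM in treated and 342.2 ± 17.8 CPM in control TFR libraries (1.44, adjusted p = 5.5e-12). Of 25 interferon response genes, 6, 2, 4 and 9 were higher and 1, 1, 1 and 0 lower in the same order of subsets, which in TFH is about the share of all genes.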

How the data were processed

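Per the labels' protocols, sorted cells were lysed for column-purified RNA with on-column DNase treatment, ribosomal RNA was removed with RiboCop, and libraries were prepared from total RNA with the CORALL kit. Per the submitters' processing notes, reads were aligned to mm10 with STAR and assigned to genes by featureCounts. Versions, the strand setting and the use of molecular identifiers are not given in those notes. The authors deposited raw counts per Ensembl gene, without normalization. Symbols, biotypes and exon lengths came from GENCODE by gene ID, and promoter sequences from RefSeq (GRCm38.p6), which matched 42 of the 50 genes.

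Tests ran in R 4.3.3 on the counts, with edgeR 4.0.16. After a low-count filter that considers the groups, 18789 genes remained. Libraries were scaled by TMM, and a single model with 8 group means and no covariates covered all libraries. P-values are two-sided, from the quasi-likelihood F test, adjusted after Benjamini-Hochberg across all tested genes, with a threshold of 0.05, and ± after a log2 fold change is its standard error. All groups share 1 estimate of the spread. Group by group, the biological coefficient of variation was 0.0751 for treated Tconv and reached 1.04 for control TFH, so the shared estimate is wider than the spread of some groups and narrower than that of others. The 14 comparisons were 4 of treatment, 4 between treated subsets, 4 between control subsets and 2 differences of treatment effects. CPM uses TMM-scaled totals. Ratios of catalytic pairs used log2(CPM + 0.5) and an exact permutation within subsets over 160000 arrangements. No pair of libraries within a group agreed within sampling noise (chi-square over genes, lowest value 4.72 for each degree of freedom), and the labels name no batch or date.

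The labels do not say whether replicate numbers pair the samples. Correlations of same-numbered libraries ran from -0.81 to 0.70 over 36 pairs. Both extremes came from treated TFR against treated Treg or treated TFH, groups that hold kidney-transcript libraries. In the other comparisons they ran from -0.057 to 0.069. Such correlations cannot decide whether the samples are paired, and a replicate block was fitted as an alternative. The members and the gene lists were chosen with earlier results of these data known. Genes named are, for each treatment comparison and direction, up to 6 with the smallest p among called genes whose groups did not overlap, up to 3 for each subset comparison, all called for a difference of effects, and a list set by role (catalytic subunits, activators and their inhibitor, chosen 19S subunits and chaperones). Psmb3 and the genes outside that rule that are named beside counts were chosen after their values were seen. Alternatives were DESeq2 1.42.0, scaling by relative log expression, dropping the filter, only the libraries compared, a replicate block, each library left out, the libraries with kidney transcripts left out, totals without receptor, haemoglobin and mitochondrial genes, and a pseudocount of 5.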

Additional observations from a re-analysis of the deposited data

Results flagged for a closer look

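Treatment effects that differed between TFH and Tconv by edgeR's test of the difference itself were those of Psmc6 (-0.84 on the log2 scale, TFH minus Tconv), Psmd8 (-0.47), Psme1 (-0.93), Psmb9 (-0.54), Psma5 (1.42) and Psmb6 (-0.77). Between TFR and Treg they were those of Psmd8 (0.90, TFR minus Treg), Psmd4 (0.86), Psmb2 (0.85), Psmd7 (0.73), Psmd11 (0.68), Psmb7 (0.60) and Psmc1 (0.64). Groups of 3 libraries are too small for a test of single outlying libraries.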

How the results depend on the processing

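The shared estimate of the spread decides many counts. Fitted on only the libraries compared, the total of genes called was 25 in place of 5 for treatment in Tconv, 19 for 2 in Treg, 2 for 8 in TFH, 23 for 0 in treated Treg against Tconv, 19 for 4 in treated TFH against Tconv, 40 for 7 in treated TFR against Treg, 37 for 20 in treated TFR against TFH, 7 for 1 in control Treg against Tconv, 0 for 7 in control TFH against Tconv, 1 for 3 in control TFR against Treg, 0 for 5 in control TFR against TFH, and 2 for 6 and 14 for 7 for the differences of effects in TFH and TFR. In that fit, treatment in Tconv gave 8 genes higher and 17 lower, and treatment in Treg 5 higher and 14 lower. Treated Treg against Tconv gave 12 higher and 11 lower, treated TFH against Tconv 3 and 16, and treated TFR against Treg 38 and 2. Control Treg against Tconv gave 6 higher and 1 lower, and the TFR difference 13 and 1. That fit moved the median of all genes by -0.26 for TFH and -0.27 for TFR treatment, -0.16 for treated TFH against Tconv, 0.19 for control TFH against Tconv and -0.12 for the TFR difference. DESeq2 called 9 in Tconv, 5 in Treg, 13 in TFH, 4 in treated Treg against Tconv, 19 in treated TFR against Treg, 12 in control TFH against Tconv and 9 in control TFR against TFH, and moved the median of all genes by -0.17 for the TFR difference. Without the low-count filter there were 0 in Treg, 1 in treated TFR against Treg, and 3 and 2 for the differences. The replicate block called 0 in Treg, lost Psmc4 in TFH (adjusted p = 0.057) and added Psme2 in Tconv. Without the kidney-transcript libraries there were 0 in Tconv, 0 in Treg, 3 in TFH, 0 in treated TFR against Treg, 10 in treated TFR against TFH, 0 in control Treg against Tconv, 0 in control TFH against Tconv, 3 in control TFR against TFH, and 0 and 2 for the differences. Here 1 control Tconv library is assumed to vary like the others. Leaving out treated Treg 3 too, chosen after seeing the data, gave 0 in Treg, 0 in treated TFR against Treg and 1 for the TFR difference. Without receptor, haemoglobin and mitochondrial genes there were 3 in treated Treg against Tconv, where the median of all genes moved by 0.15, and 2 in control Treg against Tconv.

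Leaving out 1 library gave 2 to 5 calls in Tconv, 0 in Treg (0 to 0), 4 to 15 in TFH, 12 to 19 in TFR, 0 to 0 in treated Treg against Tconv, 3 to 4 in treated TFH against Tconv, 0 to 3 in treated TFR against Treg, 12 to 17 in treated TFR against TFH, 1 to 2 in control Treg against Tconv, 2 to 12 in control TFH against Tconv, 2 to 4 in control TFR against Treg, 3 to 11 in control TFR against TFH, and 1 to 9 and 2 to 12 for the differences. The ratio differences ran from 0.50 to 0.83 (Psmb8 to Psmb5), 0.53 to 0.65 (Psmb9 to Psmb6) and 0.20 to 0.70 (Psmb10 to Psmb7, lowest without control TFH 2). The first and second of these passed the exact permutation test in every alternative.

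Genes that changed sign were uncalled on both sides. In Tconv, Psme3 was -0.0700 by DESeq2, -0.0700 with relative log expression factors, -0.021 without the filter, -0.13 on the libraries compared, -0.12 without kidney-transcript libraries and -0.022 without receptor genes, Psmf1 was -0.011, -0.011, -0.067 and -0.12 by DESeq2, relative log expression, libraries compared and without kidney, Psmd10 was -0.015 on the libraries compared and Psmb10 -0.029 without kidney. In Treg, Psmb9 was -0.016 on the libraries compared, and Psmb7 and Psme4 were 0.052 and 0.048 without receptor genes. In TFH, Psmd14 was -0.010 by DESeq2, -0.019 with relative log expression and -0.00641 without the filter, and Psme4 -0.00989 without kidney. Ranges that crossed 0 with 1 library left out were as follows. In Tconv, Psmb6 -0.16 to 0.051, Psme3 -0.0402 to 0.12. In Treg, Psmb7 -0.14 to 0.0600, Psmb9 -0.027 to 0.077, Psme4 -0.099 to 0.0014, Psmd10 -0.00616 to 0.27, Psmc3ip -0.11 to 0.50. In TFH, Psme1 -0.42 to 0.17, Psme4 -0.084 to 0.39, Psmf1 -0.36 to 0.081, Psmd4 -0.37 to 0.0099, Psmd14 -0.12 to 0.20, Psmd10 -0.79 to 0.031, Psmg1 -0.32 to 1.08. In TFR, Psmb5 -0.078 to 0.62, Psmb6 -0.046 to 0.43, Psmb10 -0.13 to 0.69, Psmf1 -0.34 to 0.057, Psmc4 -0.14 to 0.38.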
